A study of Homo sapiens with 6 samples.

Results

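The MHC class I antigen presentation genes described here are the 9 symbols HLA-B, HLA-C, HLA-E, HLA-F, B2M, TAP1, TAP2, TAPBP and NLRC5, taken by name from a table of 21631 gene symbols. All 9 were in the table, and all 9 passed the filter on low counts that left 16910 genes to be tested. The 6 RNA-seq libraries come from A-375, a long-used human melanoma cell line. Of these, 3 were labelled sgSEPHS2, from cells described as a SEPHS2 knockout, and 3 were labelled sgCTRL, from control cells. SEPHS2 is the enzyme that makes selenophosphate, the selenium donor for selenocysteine. Every library came from the same cell line, with no drug, cytokine or time point named in the labels. The labels name neither the guide sequences nor any clone, so SEPHS2 loss and a difference in the founding cells cannot be told apart.

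MHC class I molecules show peptides from inside the cell to CD8 T cells. Each consists of a polymorphic heavy chain, encoded by an HLA gene, and the light chain beta-2-microglobulin. Proteasomes cut the peptides, the TAP transporter carries them into the endoplasmic reticulum, and the peptide loading complex fits them into the groove. Transcription of these genes is driven by a promoter module bound by RFX, CREB and NF-Y factors with the coactivator NLRC5, and by NF-kB and interferon response elements. Melanoma cells are known to lose class I at their surface by lowering any of these components.

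Depth ranged from 34606145 to 43405579 counted reads over the libraries. The targeted gene was not lower: SEPHS2 had 170, 177 and 172 CPM (reads scaled to a common library size) in the libraries labelled sgSEPHS2, against 158, 152 and 157 CPM in the libraries labelled sgCTRL (log2 fold change 0.15, edgeR adjusted p = 0.00401). Frameshifts are not visible in gene counts, and every direction given here rests on the labels. Melanocyte lineage markers (8 of 8 in the table) summed to 614 to 640 CPM in sgSEPHS2 libraries and 663 to 691 CPM in sgCTRL libraries. Among them SOX10 (560 to 584 CPM in sgSEPHS2 libraries, 601 to 631 CPM in sgCTRL libraries) was abundant, S100B had 30.2 to 34.6 CPM in sgSEPHS2 libraries and 32.7 to 35.6 CPM in sgCTRL libraries, while PMEL and MLANA stayed under 2 CPM and TYR and DCT were near 0. Leukocyte markers summed to 18.9 to 19.4 CPM in sgSEPHS2 libraries and 17.7 to 20.5 CPM in sgCTRL libraries, with 7 of 10 in the table and PTPRC, the pan-leukocyte antigen CD45, at 0.301 CPM or less. Within that sum LYZ rose, with a mean of 6.70 CPM in sgSEPHS2 libraries and 3.28 CPM in sgCTRL libraries, and CORO1A fell, with 5.75 CPM in sgSEPHS2 libraries and 8.30 CPM in sgCTRL libraries (edgeR adjusted p = 8.20e-07 and 8.82e-04). Endothelial markers (4 of 4 in the table) summed to 7.82 to 8.73 CPM in sgSEPHS2 libraries and 8.69 to 9.52 CPM in sgCTRL libraries. Fibroblast markers (5 of 5) summed to 44.6 to 51.1 CPM in sgSEPHS2 libraries and 67.5 to 68.9 CPM in sgCTRL libraries, of which PDGFRB made up 26.5 to 30.8 CPM in sgSEPHS2 libraries and 51.8 to 53.4 CPM in sgCTRL libraries. LUM of the same list rose, with 6.79 to 7.28 CPM in sgSEPHS2 libraries and 3.63 to 4.51 CPM in sgCTRL libraries (edgeR adjusted p = 2.16e-05), and DCN had 0.511 to 0.703 CPM in sgSEPHS2 libraries and 0.315 to 0.356 CPM in sgCTRL libraries without passing. Epithelial markers (3 of 4) summed to 2.00 to 2.55 CPM in sgSEPHS2 libraries and 0.902 to 1.83 CPM in sgCTRL libraries, and KRT14 rose, with a mean of 1.42 CPM in sgSEPHS2 libraries and 0.317 CPM in sgCTRL libraries (edgeR adjusted p = 3.26e-05). Their part in the results was not tested.

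Of the 9 genes, 4 fell in the libraries labelled sgSEPHS2 and none rose. HLA-B and HLA-F, a classical and a non-classical heavy chain, fell to about 0.66 and 0.63 of their sgCTRL level, and TAPBP, which encodes tapasin of the loading complex, to 0.79. TAP1, a subunit of the peptide transporter, fell to 0.88. HLA-C, HLA-E, B2M, TAP2 and NLRC5 did not pass the test. In RNA from whole cultures, fewer cells of a kind and less RNA per cell cannot be told apart. A gene was called changed at an adjusted p under 0.05 in edgeR's quasi-likelihood test over all genes tested. By that rule 45.4% of all tested genes were called, 22.0% higher and 23.4% lower, so the share of the 9 genes called in either direction (44.4%) was near the background. The median log2 fold change was -0.11 over the 9 genes and 0.01 over all tested genes. The CPM ranges of the groups did not overlap for 5 of the 9 genes, against 52.1% of all tested genes.

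**Figure D1:**
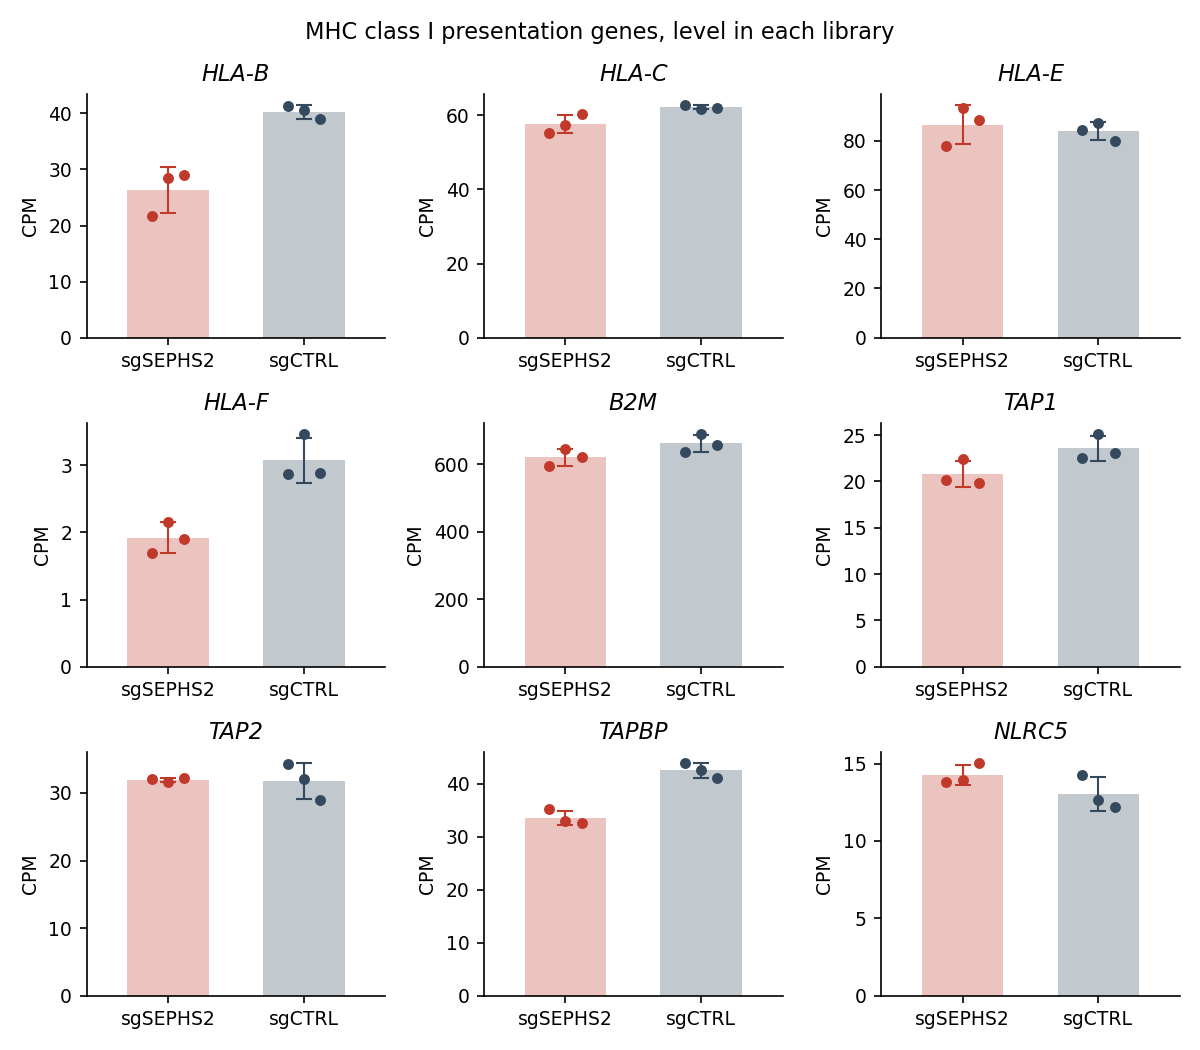
Level of each of the 9 genes in CPM on TMM-scaled library sizes, with its own axis starting at 0. Bars are means, error bars SD and points the 3 libraries of each group. For HLA-B the libraries labelled sgSEPHS2 lie between 21.6 and 29.0 CPM and the sgCTRL libraries between 38.9 and 41.3 CPM.

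Among the classical heavy chains, HLA-B (positions 31353875 to 31357179 of chromosome 6 in GRCh38.p14) had 21.6, 28.5 and 29.0 CPM in the libraries labelled sgSEPHS2, against 41.3, 40.6 and 38.9 CPM in the sgCTRL libraries. Every sgSEPHS2 library was below every sgCTRL library, and sgSEPHS2 replicate 1 was the lowest of all 6. The mean was 26.4 ± 4.11 CPM in sgSEPHS2 libraries and 40.3 ± 1.20 CPM in sgCTRL libraries (SD, n = 3 each), or -0.60 as a log2 fold change, with an SE of 0.08 and an edgeR adjusted p of 1.46e-06. Without sgSEPHS2 replicate 1 the log2 fold change was -0.49, and the call held with any 1 library left out. In GENCODE v29, 405 exon bases of HLA-B (25.5%) overlap other genes, which makes its count less certain. Of these, 33 are shared with a transcript annotated to HLA-C, and the others lie under a gene on the opposite strand.

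HLA-C (chromosome 6, 31268749 to 31272092), the neighbouring classical heavy chain and a main ligand of killer immunoglobulin-like receptors, had 55.3, 57.3 and 60.3 CPM in the libraries labelled sgSEPHS2, against 62.7, 61.7 and 62.0 CPM in the sgCTRL libraries. The groups did not overlap, but they lay close together. Its log2 fold change of -0.11 (SE 0.05) missed the threshold (edgeR adjusted p = 0.0664). It passed with at least 1 CPM required in 3 libraries (edgeR adjusted p = 0.0396) and without sgSEPHS2 replicate 3 (edgeR adjusted p = 0.0318).

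HLA-E (chromosome 6, 30489509 to 30494194), the non-classical heavy chain that presents leader peptides of other class I chains to the NK receptor NKG2A, had 77.7, 93.2 and 88.6 CPM in the libraries labelled sgSEPHS2 and 84.3, 87.3 and 80.0 CPM in the sgCTRL libraries. The groups overlapped, with the lowest and the highest value both in the sgSEPHS2 group. For HLA-E the log2 fold change came to 0.05 (SE 0.06, edgeR adjusted p = 0.537).

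HLA-F (chromosome 6, 29723434 to 29738532), a non-classical heavy chain bound by NK receptors, was the least abundant of the 4. It had 58, 93 and 77 reads in the libraries labelled sgSEPHS2, against 121, 143 and 115 reads in the sgCTRL libraries. That is 1.70, 2.16 and 1.90 CPM in the sgSEPHS2 libraries against 2.87, 3.46 and 2.88 CPM in the sgCTRL libraries, with no overlap. Its log2 fold change was -0.67 (SE 0.17, edgeR adjusted p = 0.00252), and the call held with any 1 library left out. Of the annotated exon bases of HLA-F, 40.1% lie under genes on the opposite strand in GENCODE v29. Since no source used here gives the strand setting of the counts, reads of HLA-F and of its antisense partners cannot be told apart.

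Since HLA genes are close paralogs, reads can be assigned to the wrong one or dropped. In GENCODE v29 transcripts, 2.54% of the 50-base windows of HLA-B occur exactly in a transcript of another gene, 6.71% of those of HLA-C, 5.13% of those of HLA-E and 1.70% of those of HLA-F. At 100 bases the shares were 0.00% for HLA-B and HLA-F, 0.275% for HLA-C and 0.60% for HLA-E. No source used here gives the read length, how reads with several matches were counted, or the HLA alleles of A-375. The levels of the HLA genes are therefore uncertain, and they apply to reads that matched the reference alleles. No other symbol carried the same counts as any of the 9 genes.

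Reads that move between the 4 HLA genes stay within their sum. That sum was 156, 181 and 180 CPM in the libraries labelled sgSEPHS2, against 191, 193 and 184 CPM in the sgCTRL libraries. The highest sgSEPHS2 library was just below the lowest sgCTRL library. As a log2 fold change the sum had -0.13 (SE 0.05, edgeR adjusted p = 0.033). The call rested on single libraries: without sgSEPHS2 replicate 1 the log2 fold change was -0.07 (edgeR adjusted p = 0.18), and the call was also lost without sgCTRL replicate 1 (edgeR adjusted p = 0.0908) or sgCTRL replicate 2 (edgeR adjusted p = 0.122).

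Within the sum, the shares of single genes differed. HLA-B supplied 13.8%, 15.7% and 16.1% of the summed reads in the libraries labelled sgSEPHS2, against 21.6%, 21.0% and 21.2% in the sgCTRL libraries. HLA-E supplied 49.7%, 51.5% and 49.3% in the libraries labelled sgSEPHS2, against 44.1%, 45.2% and 43.5% in the sgCTRL libraries. For each of these genes the groups did not overlap, while the shares of HLA-C did (31.6% to 35.4% in sgSEPHS2 libraries, 31.9% to 33.7% in sgCTRL libraries). The ratio of HLA-B to HLA-C reads was 0.391, 0.497 and 0.482 in the libraries labelled sgSEPHS2, against 0.658, 0.658 and 0.628 in the sgCTRL libraries. The mean log2 ratio was lower by 0.51 in the libraries labelled sgSEPHS2, with p = 0.1 in a two-sided exact permutation test (0.2 adjusted over 4 ratios compared). With 3 libraries against 3 that test cannot give less than 0.1. The ratio of HLA-B to HLA-E also had p = 0.1 (exact permutation, 0.2 adjusted).

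**Figure D2:**
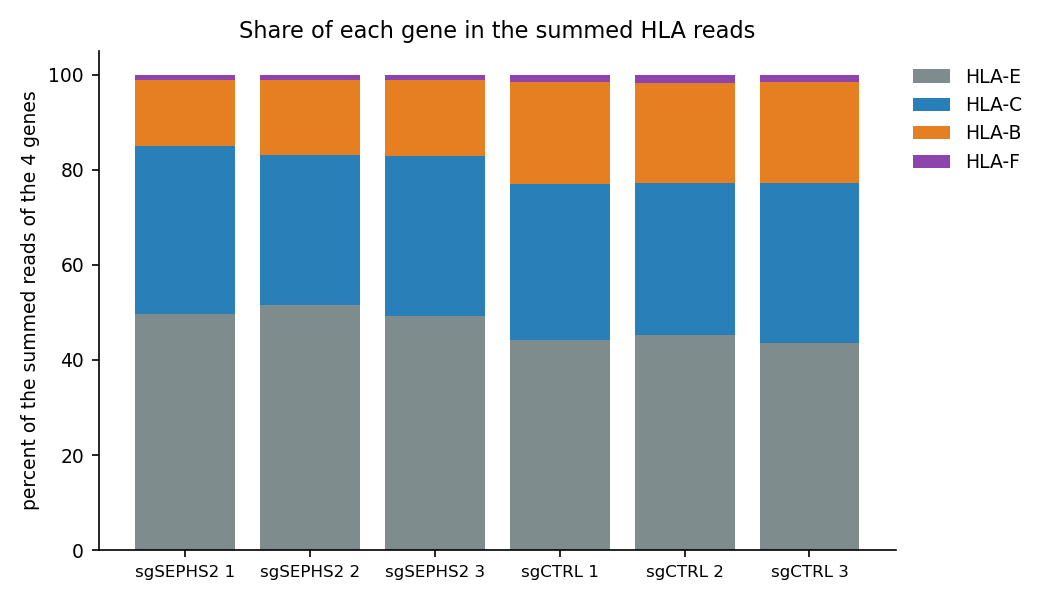
Share of HLA-E, HLA-C, HLA-B and HLA-F in the summed reads of these 4 genes, in percent, 1 bar per library. HLA-B takes 13.8% to 16.1% in the libraries labelled sgSEPHS2 and 21.0% to 21.6% in the sgCTRL libraries.

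The 250 bases before the annotated start are shown for the genes that fell most (HLA-B, HLA-F and TAPBP), for HLA-C as the closest relative of HLA-B without a call, and for B2M, whose product pairs with every heavy chain. The sequences are from RefSeq on GRCh38.p14, 5′ to 3′ on the gene's own strand, and 7 of the 9 genes had an entry (not HLA-E and NLRC5). Capitals mark 4 motifs searched on both strands. They are GGGATTCCC, a kappaB-type site, GAAANNGAA, the core of an interferon-stimulated response element, CCAAT, the Y box bound by NF-Y, and TGACG, part of the site of CREB and ATF factors. In B2M and TAPBP, a pair of GAAANNGAA matches overlaps and forms 1 run of capitals.
HLA-B (chr6:31357180-31357429, minus strand): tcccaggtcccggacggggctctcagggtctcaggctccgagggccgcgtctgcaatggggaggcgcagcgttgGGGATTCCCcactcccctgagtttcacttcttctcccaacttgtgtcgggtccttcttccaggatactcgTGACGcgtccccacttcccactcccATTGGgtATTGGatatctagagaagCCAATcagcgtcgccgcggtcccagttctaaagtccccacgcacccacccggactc
HLA-C (chr6:31272093-31272342, minus strand): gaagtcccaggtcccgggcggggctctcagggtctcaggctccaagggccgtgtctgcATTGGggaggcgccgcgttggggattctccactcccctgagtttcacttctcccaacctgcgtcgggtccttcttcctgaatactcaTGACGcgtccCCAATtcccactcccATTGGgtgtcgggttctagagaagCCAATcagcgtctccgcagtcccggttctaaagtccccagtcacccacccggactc
HLA-F (chr6:29723184-29723433, plus strand): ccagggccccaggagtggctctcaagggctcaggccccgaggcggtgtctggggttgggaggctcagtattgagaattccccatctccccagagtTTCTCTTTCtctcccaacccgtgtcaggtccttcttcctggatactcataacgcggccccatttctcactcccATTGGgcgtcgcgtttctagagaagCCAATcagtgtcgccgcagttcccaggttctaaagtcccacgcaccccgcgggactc
TAPBP (chr6:33314079-33314328, minus strand): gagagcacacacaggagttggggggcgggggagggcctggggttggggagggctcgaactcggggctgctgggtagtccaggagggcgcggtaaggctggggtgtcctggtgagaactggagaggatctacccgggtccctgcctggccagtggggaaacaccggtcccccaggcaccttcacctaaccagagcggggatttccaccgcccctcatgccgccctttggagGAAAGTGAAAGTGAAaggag
B2M (chr15:44711267-44711516, plus strand): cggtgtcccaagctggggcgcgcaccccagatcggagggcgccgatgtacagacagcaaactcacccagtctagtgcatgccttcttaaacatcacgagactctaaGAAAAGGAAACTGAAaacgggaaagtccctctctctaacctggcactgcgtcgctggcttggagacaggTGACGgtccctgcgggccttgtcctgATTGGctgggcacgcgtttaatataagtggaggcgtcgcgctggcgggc

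The exact sequence GGGATTCCC was found in the promoter of HLA-B, from -176 to -168 relative to the start. Only this form of a kappaB-type site was searched, so lower-case stretches of the other promoters may hold other forms. Counted from 1 at the 5′ end of this HLA-B site, the closest stretch in HLA-C differs by C8T, and that in HLA-F by G1A and G3A. This exact sequence occurs upstream of 127 of 35116 RefSeq starts (0.362%). Among the 7 genes with an entry, HLA-F, B2M, TAP1, TAP2 and TAPBP hold GAAANNGAA, which 6.88% of starts have. HLA-B and HLA-C have no exact match to it in this window, and other forms of the response element were not searched. CCAAT, held by HLA-B, HLA-C, HLA-F, B2M and TAP1, is found at 32.0% of starts, and TGACG, held by HLA-B, HLA-C, B2M and TAP2, at 21.2%. These are matches of letters in the reference genome, and no binding was measured.

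The light chain gene B2M (chromosome 15, 44711517 to 44718145) was by far the most abundant of the 9, with 596, 645 and 621 CPM in the libraries labelled sgSEPHS2, against 638, 690 and 659 CPM in the sgCTRL libraries. The groups overlapped at 1 library of each. With a log2 fold change of -0.09 (SE 0.04), B2M did not pass (edgeR adjusted p = 0.0873). B2M was called lower by DESeq2 (adjusted p = 0.0413), with at least 1 CPM required in 3 libraries (edgeR adjusted p = 0.0497), and once smooth trends in exon length and GC content were removed (log2 fold change -0.19, edgeR adjusted p = 3.52e-04). The summed HLA reads came to 26.2%, 28.1% and 29.0% of the B2M reads in the libraries labelled sgSEPHS2 and to 30.0%, 28.0% and 27.9% in the sgCTRL libraries, with overlap (exact permutation p = 0.6).

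TAP1 and TAP2 encode the subunits of the peptide transporter. TAP1 (chromosome 6, 32845209 to 32853704) had 20.2, 22.4 and 19.8 CPM in the libraries labelled sgSEPHS2, against 22.6, 25.1 and 23.1 CPM in the sgCTRL libraries. The ranges nearly touched. Its log2 fold change of -0.18 (SE 0.07) passed (edgeR adjusted p = 0.0302), but the call was lost without sgCTRL replicate 2 (edgeR adjusted p = 0.163), sgSEPHS2 replicate 1 (edgeR adjusted p = 0.0785) or sgSEPHS2 replicate 3 (edgeR adjusted p = 0.125). With the length and GC trends removed, TAP1 had an edgeR adjusted p of 0.0535. Of its exon bases, 15.4% lie opposite PSMB8-AS1.

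TAP2 (chromosome 6, 32821831 to 32838739) had 32.0, 31.6 and 32.2 CPM in the libraries labelled sgSEPHS2 and 34.3, 32.0 and 29.0 CPM in the sgCTRL libraries. The sgSEPHS2 values lay inside the sgCTRL range, and the log2 fold change was 0.01 (SE 0.06, edgeR adjusted p = 0.934). In GENCODE v29, 33.4% of its exon bases are shared with another gene on the same strand, and 35.8% of its 50-base windows occur in another gene, so its count is uncertain. The ratio of TAP1 to TAP2 reads was 0.63, 0.708 and 0.617 in the libraries labelled sgSEPHS2, against 0.659, 0.784 and 0.798 in the sgCTRL libraries, and the ranges overlapped (exact permutation p = 0.2, 0.267 adjusted, where 0.1 is the smallest p possible).

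TAPBP (chromosome 6, 33299694 to 33314078) encodes tapasin, which bridges the transporter to empty heavy chains and edits their peptides. It had 35.2, 33.0 and 32.7 CPM in the libraries labelled sgSEPHS2, against 43.9, 42.6 and 41.2 CPM in the sgCTRL libraries. The groups were well separated and tight. The mean was 33.6 ± 1.36 CPM in sgSEPHS2 libraries and 42.5 ± 1.38 CPM in sgCTRL libraries (SD, n = 3 each), or -0.34 on the log2 scale (SE 0.05, edgeR adjusted p = 1.83e-05). Its call held with any 1 library left out.

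NLRC5 (chromosome 16, 56989557 to 57083520), the coactivator of class I genes, had 13.8, 14.0 and 15.0 CPM in the libraries labelled sgSEPHS2 and 14.3, 12.6 and 12.2 CPM in the sgCTRL libraries. The groups overlapped, since sgCTRL replicate 1 was higher than its fellows. Its log2 fold change of 0.13 (SE 0.08) did not pass (edgeR adjusted p = 0.20). NLRC5 was called higher once the length and GC trends were removed (log2 fold change 0.26, edgeR adjusted p = 0.0103).

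**Figure D3:**
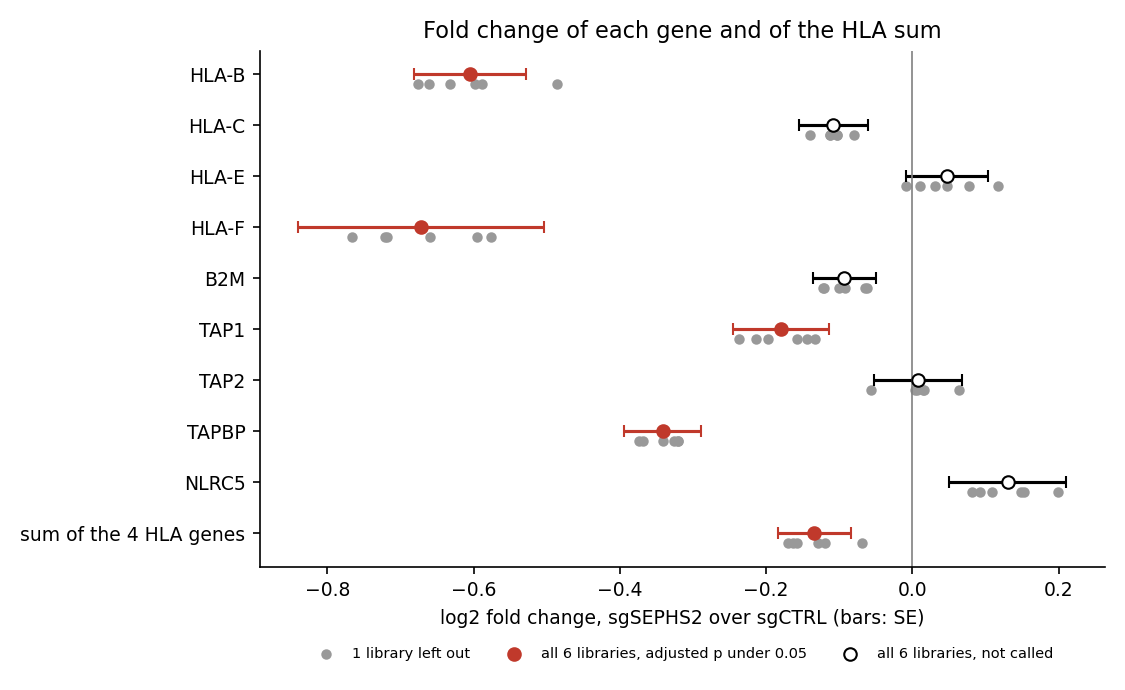
Log2 fold change, sgSEPHS2 over sgCTRL, of each gene and of the summed HLA genes, with SE bars. Red points passed the test, open points did not, and grey points are refits with 1 library left out. HLA-B, HLA-F and TAPBP stay below 0 in every refit (-0.49 for HLA-B without sgSEPHS2 replicate 1), while HLA-E and TAP2 lie on both sides of 0.

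Per kilobase of annotated exon, the order of levels was B2M, HLA-C, HLA-E, HLA-B, TAPBP, TAP1, TAP2, NLRC5 and HLA-F. B2M had 251 to 271 CPM per kilobase in the libraries labelled sgSEPHS2 and 268 to 290 CPM per kilobase in the sgCTRL libraries. HLA-C and HLA-E were the only neighbours in that order whose ranges overlapped, and they did so in the sgSEPHS2 group (35.6 to 38.8 against 29.9 to 35.8 CPM per kilobase) but not in the sgCTRL group (39.7 to 40.4 against 30.8 to 33.6 CPM per kilobase). HLA-B followed with 13.6 to 18.3 CPM per kilobase in the libraries labelled sgSEPHS2 and 24.5 to 26.0 CPM per kilobase in the sgCTRL libraries. HLA-F was lowest, at 0.856 to 1.09 CPM per kilobase in the sgSEPHS2 group and 1.45 to 1.74 CPM per kilobase in the sgCTRL group.

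Of 75 tested genes in 9 lists of related function, 30 rose (40.0%) and 20 fell (26.7%), beside 22.0% and 23.4% of all tested genes. Among genes that supply peptides, proteasome genes were mostly higher. Of 5 genes of the immunoproteasome and its PA28 activator, 3 rose and none fell. PSME2 and PSME1, the PA28 subunits, rose by log2 fold changes of 0.35 and 0.25 (edgeR adjusted p = 3.15e-06 and 8.03e-05). PSMB8, an immunoproteasome protease next to TAP1 and TAP2, had 33.3, 39.4 and 35.2 CPM in the libraries labelled sgSEPHS2, against 28.7, 30.2 and 30.1 CPM in the sgCTRL libraries (log2 fold change 0.28, edgeR adjusted p = 7.78e-04). PSMB9, which shares an intergenic promoter with TAP1, had 12.8 to 13.3 CPM in the sgSEPHS2 group and 12.9 to 14.8 CPM in the sgCTRL group (log2 fold change -0.07, edgeR adjusted p = 0.469). The constitutive catalytic subunits PSMB6, PSMB7 and PSMB5 rose by 0.37, 0.18 and 0.14 on the log2 scale. PSMB5 lost its call without sgCTRL replicate 1 (edgeR adjusted p = 0.106) or sgSEPHS2 replicate 2 (edgeR adjusted p = 0.0655), and PSMB7 and PSMB5 lost theirs once the length and GC trends were removed (edgeR adjusted p = 0.122 and 0.181).

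Of 13 genes of peptide loading and trimming, 5 rose and 3 fell, and the median log2 fold change was 0.07. The chaperones CALR and CANX, which fold and hold heavy chains, rose by 0.22 and 0.21 (edgeR adjusted p = 2.55e-04 and 2.07e-04). THOP1, a cytosolic peptidase that destroys class I peptides, rose by 0.28. ERAP1, which trims peptides in the endoplasmic reticulum, had 96.2, 99.5 and 95.0 CPM in the libraries labelled sgSEPHS2, against 115, 115 and 113 CPM in the sgCTRL libraries (log2 fold change -0.24, edgeR adjusted p = 7.68e-05). The cytosolic peptidase TPP2 fell by 0.42 on the log2 scale (edgeR adjusted p = 9.04e-08) and lies on chromosome 13, whose protein-coding genes had a median log2 fold change of -0.42. UGGT1, which returns badly folded glycoproteins for another round, fell by 0.22 on the log2 scale (edgeR adjusted p = 3.31e-04).

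Of the 8 genes of the RFX, CREB and NF-Y complex at the class I promoter module, 3 rose and 1 fell. All 3 NF-Y subunits rose, NFYB by 0.37, NFYC by 0.22 and NFYA by 0.22 on the log2 scale (edgeR adjusted p = 1.05e-06 to 0.00141). RFXAP had 12.4, 12.9 and 12.8 CPM in the libraries labelled sgSEPHS2, against 18.2, 17.7 and 17.7 CPM in the sgCTRL libraries (log2 fold change -0.49, edgeR adjusted p = 4.93e-06). It also lies on chromosome 13. RFX5, another subunit of the RFX complex, had 0.03 as its log2 fold change (SE 0.04, edgeR adjusted p = 0.604).

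NF-kB subunit genes fell, 4 of 5, and the median log2 fold change was -0.44. RELB had 7.88, 9.66 and 9.35 CPM in the libraries labelled sgSEPHS2, against 18.1, 21.0 and 18.9 CPM in the sgCTRL libraries (log2 fold change -1.10, edgeR adjusted p = 1.25e-09). NFKB2 fell by 0.77, REL by 0.44 and RELA by 0.17 on the log2 scale, and NFKB1 had -0.07 (edgeR adjusted p = 0.193). Of 11 tested genes of interferon gamma signalling, 6 fell and 1 rose, with a median of -0.13. The receptor genes IFNGR2 and IFNGR1 fell by 0.43 and 0.25 on the log2 scale (edgeR adjusted p = 4.23e-07 and 0.00175). IRF1, a transcription factor that drives class I genes, had 11.5, 13.4 and 12.7 CPM in the libraries labelled sgSEPHS2, against 15.2, 15.4 and 15.7 CPM in the sgCTRL libraries (log2 fold change -0.29, edgeR adjusted p = 0.00355). SOCS3, a feedback inhibitor of cytokine signalling, fell by 1.09 on the log2 scale. JAK1 fell by 0.13, a call lost without sgSEPHS2 replicate 2 (edgeR adjusted p = 0.0826). The gene that rose was PTPN2, a phosphatase that dampens cytokine receptor signalling, by 1.00 (edgeR adjusted p = 2.82e-13). It lies on chromosome 18, where the 43 tested protein-coding genes up to and including PTPN2 had a median log2 fold change of 0.94. Without sgCTRL replicate 1 or sgCTRL replicate 3, 2 genes of this list rose.

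**Figure D4:**
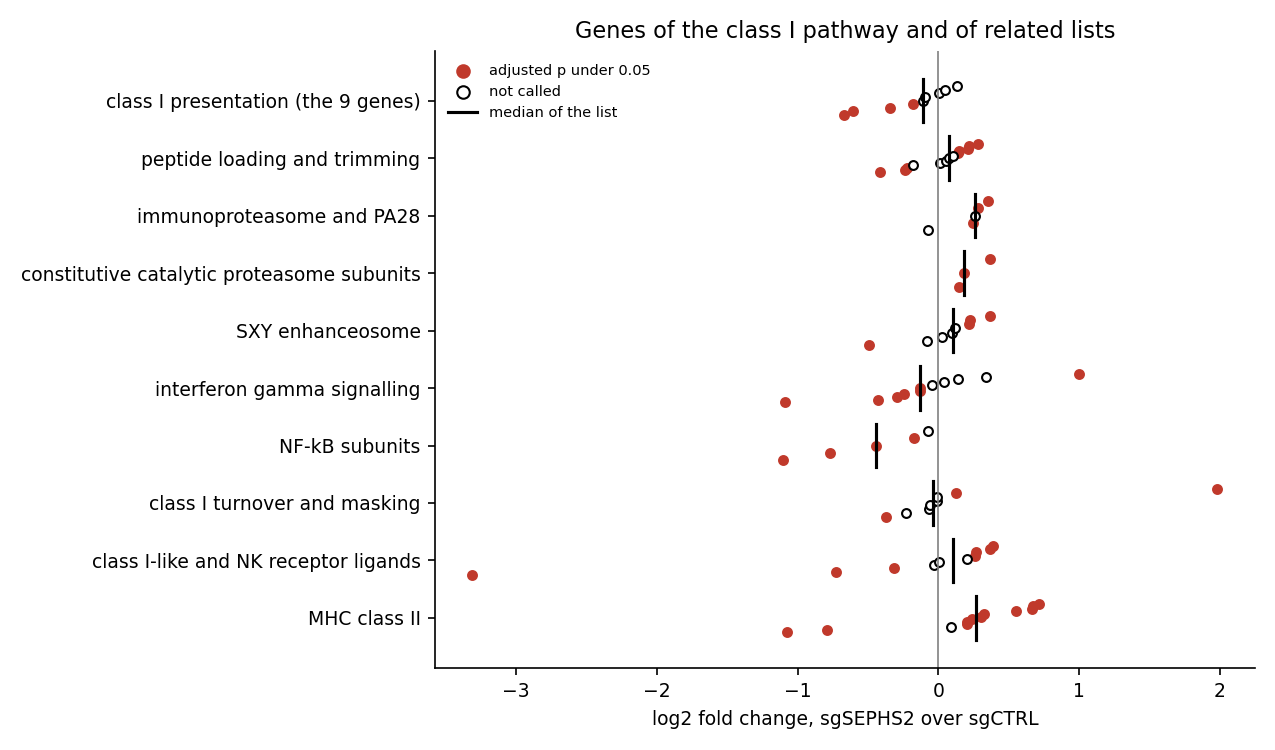
Log2 fold change, sgSEPHS2 over sgCTRL, of the 9 genes and of the tested genes of 9 related lists, 1 point per gene. Red points passed the test, open points did not, and black lines mark the median of each list. The median is -0.11 for the 9 genes, -0.44 for NF-kB subunits and 0.27 for MHC class II.

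Of 8 genes that remove or mask class I molecules, 2 rose and 1 fell. B3GNT5, which makes glycolipids that cover class I at the surface, fell by 0.37 on the log2 scale (edgeR adjusted p = 0.00145). SPPL3, a protease that limits those glycolipids, rose by 0.13, a call lost without sgCTRL replicate 2, sgCTRL replicate 3, sgSEPHS2 replicate 1 or sgSEPHS2 replicate 2 (edgeR adjusted p = 0.0539 to 0.129), which left 1 gene higher in each case. MARCHF4, a ubiquitin ligase that takes class I off the surface when overexpressed, was higher but low, at 0.41, 0.557 and 0.493 CPM in the libraries labelled sgSEPHS2, against 0.119, 0.194 and 0.0501 CPM in the sgCTRL libraries (edgeR adjusted p = 0.00329). Without sgCTRL replicate 1 or sgSEPHS2 replicate 1, 2 genes of this list fell. SUSD6, TMEM127 and WWP2, which act together to degrade class I, did not pass (log2 fold changes -0.23, -0.06 and -0.07).

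Of 10 tested class I-like genes and NK receptor ligands, 4 rose and 3 fell. MICA and MICB, stress ligands of NKG2D that lie near HLA-B, rose by 0.37 and 0.39 on the log2 scale. MICA had 11.2, 14.3 and 11.9 CPM in the libraries labelled sgSEPHS2, against 10.2, 8.94 and 9.87 CPM in the sgCTRL libraries (edgeR adjusted p = 0.00342), a call lost without sgSEPHS2 replicate 2 (edgeR adjusted p = 0.0513), where 2 genes of the list rose. PROCR, the endothelial protein C receptor, rose by 0.26. FCGRT, the heavy chain of the neonatal Fc receptor, which also pairs with beta-2-microglobulin, had 0.234, 0.325 and 0.469 CPM in the libraries labelled sgSEPHS2, against 4.13, 3.56 and 2.73 CPM in the sgCTRL libraries (log2 fold change -3.31, edgeR adjusted p = 9.32e-10). CD1D and MR1, which present lipids and microbial metabolites, fell by 0.73 and 0.32 on the log2 scale (edgeR adjusted p = 0.00544 and 0.00177).

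MHC class II genes, which A-375 expressed in both groups, were mostly higher: of 12 tested, 9 rose and 2 fell, and the median log2 fold change was 0.27. HLA-DRA had 147, 170 and 165 CPM in the libraries labelled sgSEPHS2, against 121, 134 and 130 CPM in the sgCTRL libraries (log2 fold change 0.33, edgeR adjusted p = 2.80e-05). HLA-DMB, HLA-DOA, HLA-DRB5 and HLA-DRB1 rose by 0.67, 0.72, 0.67 and 0.55, and CIITA, the class II coactivator related to NLRC5, rose by 0.24 (edgeR adjusted p = 0.0017). HLA-DRB1 and HLA-DRB5 are paralogs whose reads may be shared. CTSS, the protease cathepsin S that trims the invariant chain, fell by 0.79 on the log2 scale (edgeR adjusted p = 5.93e-07), and HLA-DQB1 fell by 1.08 with 17 to 25 reads in sgSEPHS2 libraries and 48 to 50 reads in sgCTRL libraries. Whether the class I and class II lists differ was not tested.

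Neighbours in the MHC region were more often higher than lower. Of 102 other tested protein-coding genes between HLA-F and TAPBP, 35 rose (34.3%) and 15 fell (14.7%), beside 22.0% and 23.4% of all tested genes. Among protein-coding genes of chromosome 6, 26.5% rose and 19.9% fell. The median log2 fold change of the 102 genes was 0.11. Genes named above with their lists, such as HLA-DRA, HLA-DMB, PSMB8, MICA and MICB, are counted here again. Among the 35, RPP21 and TRIM39-RPP21, which overlap, carried the same counts in every library, so the same reads stand behind 2 of them. Protein-coding genes of chromosome 6 as a whole had a median of 0.04 over 727 tested, those of chromosome 15, which carries B2M, 0.002 over 466, and those of chromosome 16, which carries NLRC5, -0.02 over 620.

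**Figure D5:**
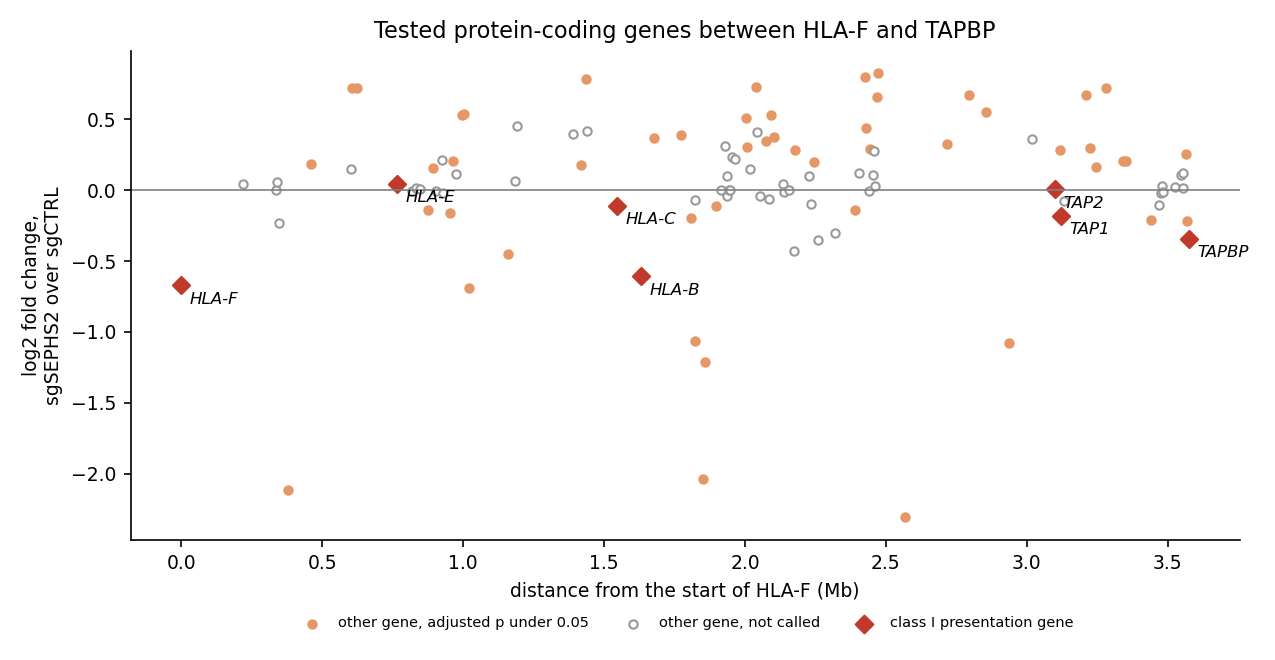
Log2 fold change, sgSEPHS2 over sgCTRL, of tested protein-coding genes against distance from the start of HLA-F in Mb. Diamonds are the class I presentation genes, filled points other genes that passed the test and open points other genes that did not. The other genes have a median of 0.11, and HLA-B, at -0.60, lies next to MICA and MICB, at 0.37 and 0.39.

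The genes whose log2 CPM over the 6 libraries was most like that of HLA-B, among the 9955 genes averaging 10 CPM or more, were SNTB1, TRIM13 and C1R (Pearson r = 0.996, 0.996 and 0.995). For B2M they were ITPKC, CTSL and METTL22 (Pearson r = 0.994, 0.988 and 0.988). These values describe 6 points in 2 groups, on levels scaled for depth, and a difference between the groups enters every correlation. Between the 9 genes themselves, the highest correlations were those of HLA-B with HLA-C (r = 0.947) and with HLA-F (r = 0.943), followed by B2M with TAP1 (r = 0.937). NLRC5 had r = -0.726 with TAP1 and r = 0.684 with TAP2.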

How the data were processed

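Expression was measured by RNA-seq in 3 sgSEPHS2 and 3 sgCTRL libraries. The authors deposited raw read counts for each gene symbol in 1 table. Per the submitters' processing notes, the reads went through HISAT2 2.2.1, featureCounts 2.0.6, SAMtools 1.21 and FastQC 0.12.1 with GRCh38. No source used here gives the annotation, the strand setting or the handling of multi-mapping reads. Sample titles gave groups and replicate numbers. No label says that replicates were grown separately, so the tests reflect variation among these libraries, possibly technical only.

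The test of the counts was that of edgeR 4.0.16 under R 4.3.3 (TMM factors, default expression filter, two-sided quasi-likelihood test, Benjamini-Hochberg adjustment over 16910 genes), and CPM used TMM-scaled library sizes. Each SE is the size of the log2 fold change over the root of its F statistic. Alternatives tried were upper-quartile and RLE factors, no filter, a minimum of 1 CPM in 3 libraries, DESeq2 1.42.0, limma-voom from limma 3.58.1, a replicate block, leaving out each library and a threshold of 0.01. Leaving out chromosomes 13 and 18, removing trends in exon length and GC content (available for 90.5% of tested genes), and the 4 read ratios were chosen after seeing the data. The fit was tested on simulated data.

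The genes and lists were chosen with earlier results of these data known. From each list up to 6 called genes with the smallest adjusted p were named, or the most abundant where none passed. PSMB9, RFX5, NFKB1, SUSD6, TMEM127, WWP2, CIITA and HLA-DQB1 were added after their values were seen. Gene positions and promoters came from RefSeq (GRCh38.p14), exon lengths and transcripts from GENCODE v29.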

Additional observations from a re-analysis of the deposited data

How the results depend on the processing

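The calls of HLA-B, HLA-F and TAPBP and their direction held under every alternative run. The 9 genes gave 3 to 6 calls lower over all alternatives, with 6 when at least 1 CPM was required in 3 libraries, where HLA-C and B2M joined. None was called higher except under the length and GC correction, where 1, NLRC5, was. The log2 fold change of the summed class I heavy chain genes was -0.17 to -0.069 with 1 library left out, and at -0.13 it missed an adjusted p threshold of 0.01, as did TAP1. For genes near 0 the sign changed. TAP2 had -0.0036 with at least 1 CPM required in 3 libraries and -0.057 (without sgCTRL replicate 3) to 0.063 with 1 library left out, and HLA-E had -0.0095 (without sgSEPHS2 replicate 2) to 0.117. The cause was not tested. With 1 library left out, 3069 to 3548 genes were called higher and 3270 to 3905 lower, and in the MHC region 26 to 35 higher and 10 to 15 lower. Deviations from the group mean correlated weakly between same-numbered libraries, at 0.0904, 0.11 and 0.0661. The mean was -0.0443 for differently numbered libraries of the 2 groups, and 4 of 6 libraries correlated best with their own number. Whether replicate numbers pair the libraries was not tested. With the replicate block 3777 genes were called higher and 3997 lower, against 3723 and 3950 without it, the summed HLA genes had an edgeR adjusted p of 0.0195, and B2M passed (edgeR adjusted p = 0.0402). Only 58 to 143 reads of HLA-F per library limit its precision, and the labels name no molecular identifiers.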
